A study of Homo sapiens with 2 samples.

Results

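The genes described here are the RNF genes, which encode ring finger proteins, together with RCHY1, a ring finger gene linked to p53 by earlier work. They were chosen by name: probe sets whose 1 platform gene symbol is RNF followed by a digit, with RCHY1 added. The rule found 79 of the 18417 genes with a probe set of 1 symbol, on 84 probe sets, and 5 of the genes had more than 1 probe set. Of the 79, 76 are protein-coding in RefSeq, 2 are pseudogenes (RNF216P1 and RNF126P1) and 1 is an antisense RNA (RNF213-AS1), and these 3 encode no ligase. RNF5 is outside the rule because its probe sets also name the pseudogene RNF5P1.

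The samples were H1299 cells given p53 and H1299 cells labelled as negative control. H1299 derives from a human non-small cell lung cancer and has no p53 of its own, so both conditions share that background, and a single line was studied. The series concerns p53 and 5-hydroxymethylcytosine in gene regulation. The labels do not say how p53 was introduced, for how long, or what the negative control received. Each condition was measured on 1 Affymetrix array of total RNA, so there are no replicates. No difference below has a test or a replicate error, and each describes these 2 arrays. Values are RMA log2 intensities, and a difference is the log2 value with p53 minus the log2 value in the negative control. In bulk RNA, fewer cells carrying a transcript and less transcript per cell cannot be told apart.

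Ubiquitin is attached to proteins by a relay of an activating enzyme (E1), a conjugating enzyme (E2) and a ligase (E3), and the ligase chooses the substrate. Most ring finger ligases hold the charged E2 beside the substrate. Ligases of the ring-between-ring (RBR) class instead take ubiquitin onto a cysteine of their own before passing it on. Several ring finger ligases act on p53 or are transcribed from p53 target genes, and MDM2 is the best known of both kinds.

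As a check of the arrays, the p53 target CDKN1A, which encodes the cell cycle inhibitor p21, read 12.66 with p53 versus 9.18 in control cells. The medians of all 33297 probe sets were 7.38 with p53 and 7.38 in the control. Of 7 markers chosen for epithelial and carcinoma lines, 4 were above that median, namely KRT7, KRT8, KRT18 and VIM. KRT8 read 12.84 with p53 versus 12.52 in control cells. VIM, which is not specific to epithelium, read 12.92 with p53 versus 13.07 in control cells. KRT19 and the epithelial markers EPCAM and CDH1 were below the median. All 4 measured haematopoietic markers, and all 5 fibroblast and endothelial markers except COL1A1, also lay below it, and these 9 genes had the same value in both arrays. A gene was counted as kept where the higher of its arrays was at or above 7.38.

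RNF144B had by far the largest difference of the family, and RNF19B, of the same RBR class, came second. Of the 79 genes, 6 were at least 2-fold higher with p53, namely RNF144B, RNF19B, RNF150, RNF128, RNF185 and RNF13. Only RNF182 and RNF145 were at least 2-fold lower, and 71 genes were neither. Over all 18417 genes, 5.22% were at least 2-fold higher and 3.7% at least 2-fold lower. The members' 7.59% higher and 2.53% lower are near these shares. At 1.5-fold, 13 members were higher (16.5%) and 8 lower (10.1%), beside 9.4% higher and 10.1% lower of all genes. The share higher was thus above that of all genes at 1.5-fold, in a comparison that has no test. Brightness was not matched in it, since 63 of the 79 members but 11436 of the 18417 genes were kept. Among kept genes, 20.6% of members were higher and 12.7% lower at 1.5-fold, beside 14.4% and 15.5% of all kept genes. The median difference of the 79 was 0.00, as it was over all genes, and in both it fell among genes with equal values. Of the 79 differences 21 were positive, 37 negative and 21 exactly equal, beside 4950, 6963 and 6504 of all genes. Among the 63 kept members the same 6 were higher and the same 2 lower, beside 8.21% higher and 5.79% lower over all 11436 kept genes. RNF144B, RNF148 and RNF151 were kept through the p53 array alone, and RNF8 and RNF103 through the control array alone.

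**Figure D1:**
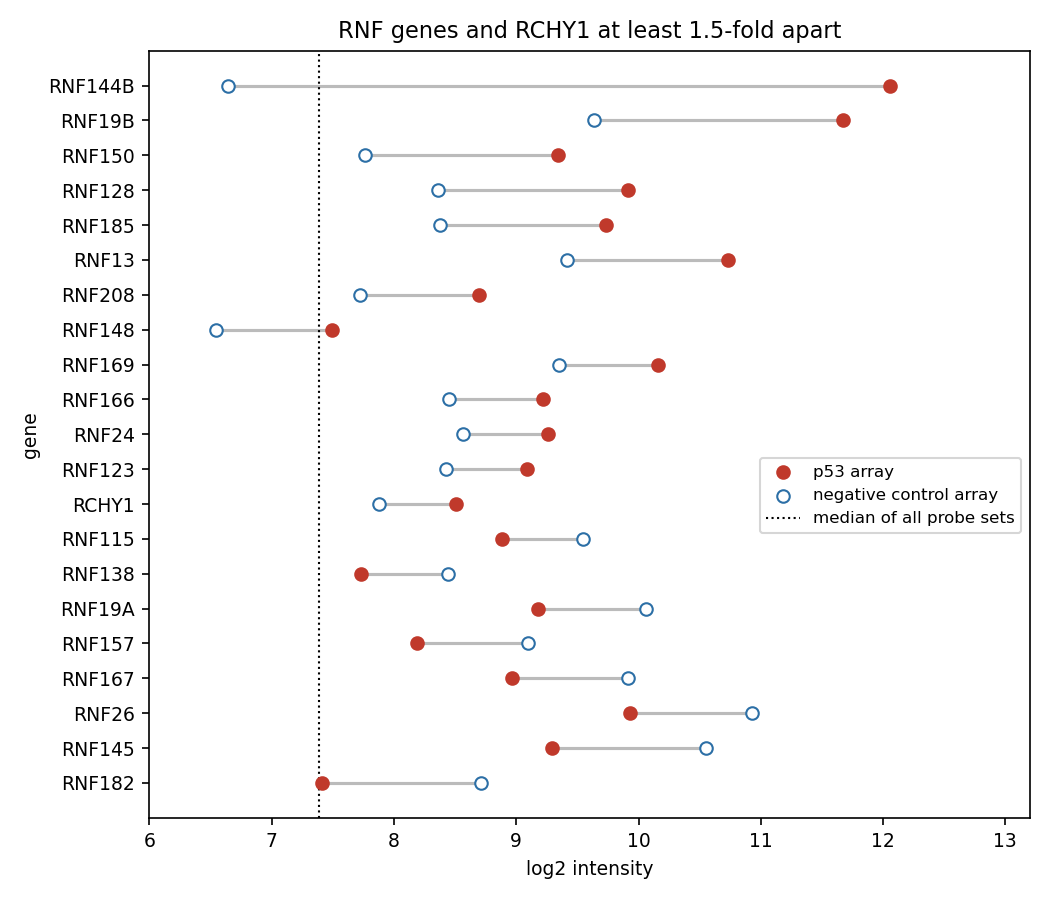
Log2 intensity (x axis) of the 21 members at least 1.5-fold apart, 1 gene per row, with filled points for the p53 array, open points for the negative control array and the median of all probe sets, 7.38, dotted. RNF144B has the widest gap, with 12.06 in the p53 array and 6.64, below the dotted line, in the control array.

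**Figure D2:**
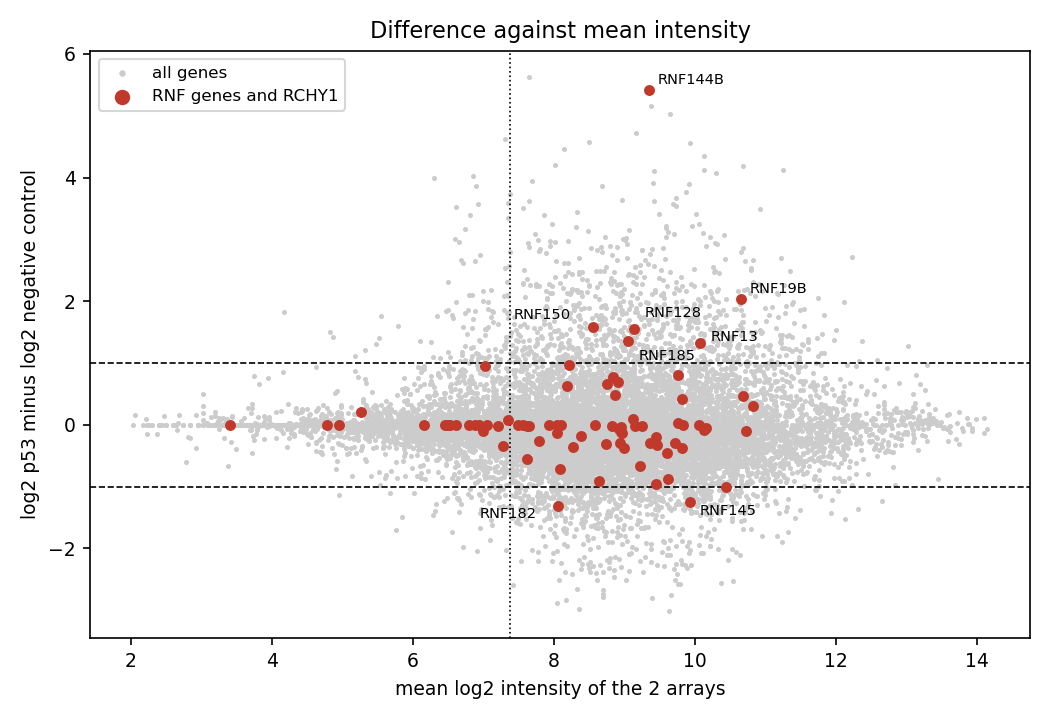
Log2 difference, p53 minus negative control (y axis), against the mean log2 intensity of both arrays (x axis) for all 18417 genes in grey and the 79 members in red, with dashed lines at 2-fold and a dotted line at 7.38. Most members lie between the dashed lines, and RNF144B lies near the top of all genes.

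The RBR ligases held the 2 largest differences of the family. RNF144B is known as a p53-induced ligase and has been reported to ubiquitinate the apoptosis effector BAX. It read 12.06 with p53 versus 6.64 in control cells, a difference of 5.41, or 42.6-fold. Only 1 of the 18417 genes had a larger positive difference. The control value is below the median of all probe sets, so the exact fold is not fixed. Detection calls were not used here.

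Its paralogue RNF144A, which has been reported to act on the DNA repair kinase DNA-PKcs, read 6.50 with p53 versus 6.50 in control cells. The 2 values are identical, a difference of 0.00, and both lie below the filter, so they say little about whether RNF144A changed. The difference of RNF144B exceeded that of RNF144A by 5.41. Intensities of different probe sets are not set against each other, so this says nothing of which paralogue was more abundant. Of the protein-coding neighbours of RNF144B on chromosome 6, looked at after the values were known, KDM1B had a difference of -0.31, DEK of -0.73, ID4 of 0.06 and MBOAT1 of -1.46. None of these 4 was higher with p53 by 2-fold, which is near the 5.22% of all genes. MBOAT1 was more than 2-fold lower, 1 of the 4, beside 3.7% of all genes. Whether the region as a whole changed was not tested. ID4 lay below the filter in both arrays, so its value says little.

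The start regions of both paralogues are shown because RNF144B has the largest difference of the family and RNF144A is its paralogue. The windows are from RefSeq on GRCh38.p14 and run 5′ to 3′ on the gene's strand, with 250 bases before and 50 after the annotated start. Capitals mark TATAAA or GGGCGG, searched on both strands, with the reverse complement of the second also in capitals. RNF144B has 1 such window, at chr6:18387100-18387399 on the plus strand. RNF144A has 2 annotated starts, at chr2:6932834-6933133 and chr2:6917162-6917461, both on the plus strand.
RNF144B: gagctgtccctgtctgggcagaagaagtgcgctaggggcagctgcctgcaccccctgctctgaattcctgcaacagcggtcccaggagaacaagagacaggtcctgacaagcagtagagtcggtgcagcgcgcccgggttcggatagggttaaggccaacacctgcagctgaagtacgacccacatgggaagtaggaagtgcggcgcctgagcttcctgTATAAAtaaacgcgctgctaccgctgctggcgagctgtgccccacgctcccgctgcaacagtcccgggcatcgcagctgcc
RNF144A first window: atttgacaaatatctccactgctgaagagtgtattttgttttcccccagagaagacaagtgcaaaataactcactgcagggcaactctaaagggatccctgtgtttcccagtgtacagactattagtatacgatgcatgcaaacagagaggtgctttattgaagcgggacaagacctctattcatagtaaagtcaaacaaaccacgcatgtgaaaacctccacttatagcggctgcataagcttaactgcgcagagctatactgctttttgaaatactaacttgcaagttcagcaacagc
RNF144A second window: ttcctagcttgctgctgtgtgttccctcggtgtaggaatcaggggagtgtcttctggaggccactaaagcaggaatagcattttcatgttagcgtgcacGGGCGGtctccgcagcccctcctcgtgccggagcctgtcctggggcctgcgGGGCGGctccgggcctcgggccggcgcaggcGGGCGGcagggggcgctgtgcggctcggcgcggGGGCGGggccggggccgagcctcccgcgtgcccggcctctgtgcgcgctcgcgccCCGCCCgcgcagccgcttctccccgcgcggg
The RNF144B window holds TATAAA at position -31 from the start and no GGGCGG, with 61.7% G and C. The second RNF144A window holds 5 GGGCGG matches over both strands, no TATAAA, and 74% G and C. Its first window holds neither and has 42% G and C. TATAAA occurred in 11.5% of all 35116 RefSeq windows and in 8.08% of the 99 windows of the 64 members that matched. GGGCGG occurred in 45% of all windows and 63.6% of the members' windows. The p53 half-site consensus, without mismatches, was in 6.63% of all windows and 3.03% of the members' windows, and in none of the windows printed here. These are matches of letters in short windows and say nothing about binding of p53 there or elsewhere.

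RNF19B, a ligase first described in natural killer cells, read 11.68 with p53 versus 9.64 in control cells, a difference of 2.04, or 4.10-fold. Both levels are well above the filter. Its paralogue RNF19A, also called dorfin, went the other way, reading 9.18 with p53 versus 10.06 in control cells, a difference of -0.88. RNF31 is the catalytic subunit of the linear ubiquitin chain complex (LUBAC) and read 8.30 with p53 versus 8.47 in control cells. Its LUBAC partners RBCK1 and SHARPIN had differences of 0.04 and -0.15, so none of the 3 subunits was apart by 1.5-fold. RNF216 had a difference of -0.32, RNF14, a coactivator of the androgen receptor, of -0.09, and RNF217 of -0.02. Of the 8 RBR members 2 were at least 2-fold higher (25%) and none lower, beside 5.22% and 3.7% of all genes. Since 7 of the 8 were kept, the shares of all kept genes, 8.21% and 5.79%, are the closer comparison. Apart from RNF144B and RNF19B, the other 6 ran from -0.88 to 0.00, and the median of all 8 was -0.06.

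**Figure D3:**
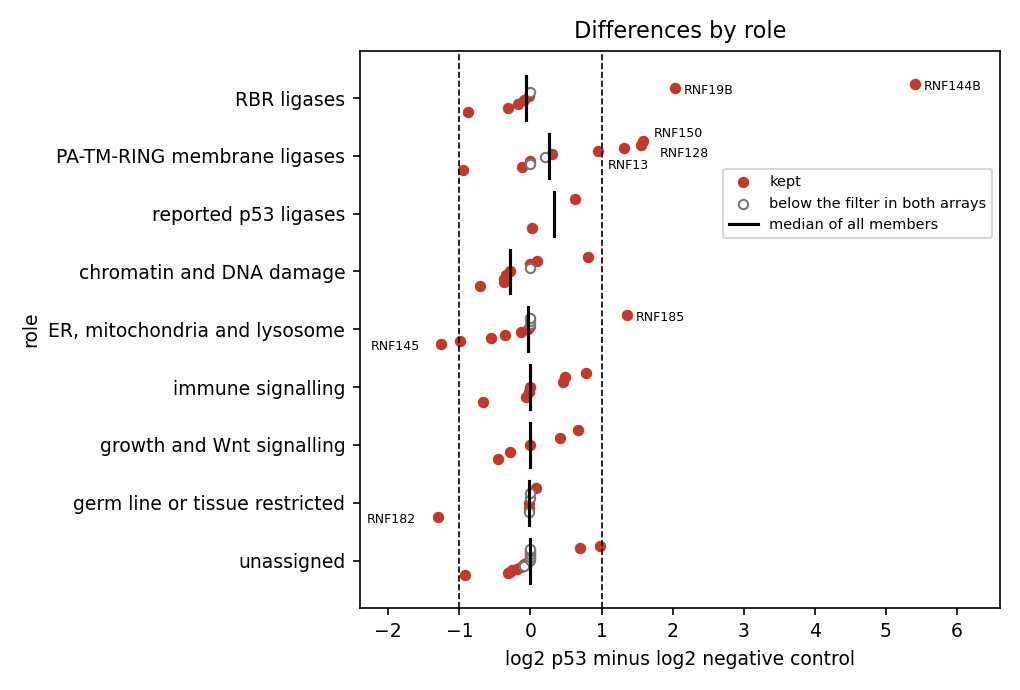
Log2 difference, p53 minus negative control (x axis), of the 79 members by role, with filled points for kept genes, open points for genes below the filter in both arrays, a bar at each group's median and dashed lines at 2-fold. The 2 RBR ligases RNF144B and RNF19B lie right of the upper line, with 3 membrane ligases and RNF185.

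The membrane ligases of the PA-TM-RING class carry a protease-associated domain facing the lumen or outside and a ring finger in the cytosol. They had 3 of the 6 higher genes. Of the 10 members of the class 3 were at least 2-fold higher (30%) and none lower, beside 5.22% and 3.7% of all genes. Of the 10, 8 were kept, and the shares of all kept genes were 8.21% and 5.79%. RNF150 read 9.34 with p53 versus 7.76 in control cells, a difference of 1.58. RNF128, known as GRAIL in T cell anergy, read 9.91 with p53 versus 8.36 in control cells, a 2.93-fold difference. RNF13, an endosomal and lysosomal ligase, read 10.73 with p53 versus 9.41 in control cells, a 2.50-fold difference. All 3 were above the filter in both arrays.

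None of the other 7 membrane ligases reached 2-fold. Over the whole class 6 differences were positive, 2 were negative and 2 genes were equal in both arrays. RNF167, which is closely related to RNF13 and also endosomal, was lower, reading 8.96 with p53 versus 9.91 in control cells, a difference of -0.95 that falls short of 2-fold. RNF148, a testis gene, had a difference of 0.95, reading 7.49 with p53 versus 6.54 in control cells, and passed the filter through the p53 array alone. RNF130 had a difference of 0.31 and RNF149 of -0.12. RNF43, which removes Wnt receptors from the cell surface, and RNF215 had the same value in both arrays, 6.49 for RNF43 and 7.49 for RNF215. RNF133, another testis gene, was below the filter in both arrays. The 10 members of the class had a median of 0.26.

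Among members linked to p53 by earlier work, RCHY1, also called PIRH2, has been reported both as a p53 target and as a ligase of p53. It read 8.51 with p53 versus 7.87 in control cells, a difference of 0.63, or 1.55-fold, under the 2-fold line. RNF34, which has been reported to act on p53, read 9.77 with p53 versus 9.75 in control cells. RNF144B was thus far above both, with a difference 5.41 against 0.63 and 0.02.

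Of the 9 measured ligases of chromatin and DNA damage none was 2-fold higher or lower with p53, and their median difference was -0.29. Over all genes 5.22% were higher and 3.7% lower, so a count of none in 9 genes is near those shares. RNF169, which competes for ubiquitinated chromatin at DNA breaks, was highest, reading 10.16 with p53 versus 9.35 in control cells, a difference of 0.81. Its relative RNF168, which writes that ubiquitin mark, had a difference of -0.29, and RNF8, which acts ahead of RNF168, of -0.34. RNF138, a ligase of DNA end resection, was lowest of the group, reading 7.73 with p53 versus 8.44 in control cells, a difference of -0.72. RNF20 and RNF40 form the ligase of histone H2B: RNF20 had a difference of -0.37, and RNF40 was equal in both arrays at 8.58. The SUMO-directed ligase RNF4 stood at -0.37, and RNF111, of TGF-beta signalling, at 0.10. RNF113A was below the filter and had 1 value for both arrays, 6.79.

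Of 11 measured ligases of the endoplasmic reticulum (ER), mitochondria and lysosome, 1 was at least 2-fold higher and 1 lower (9.09% each). Over all genes the shares were 5.22% higher and 3.7% lower, and over all kept genes 8.21% and 5.79%. RNF185, which takes part in ER-associated degradation, read 9.73 with p53 versus 8.37 in control cells, a 2.56-fold difference. RNF145, an ER ligase of sterol control, read 9.30 with p53 versus 10.55 in control cells, a 2.38-fold lower level. RNF139, a related sterol-linked ligase, had a difference of -0.03. RNF26, an ER ligase that positions endosomes, lay just short of 2-fold, with 9.93 in the p53 array and 10.93 in the control, a difference of -0.998. RNF121 had a difference of -0.14, RNF103 of -0.56, kept through the control array alone, and RNF170, which acts on the inositol trisphosphate receptor, of -0.36. RNF152, RNF180 and RNF183 lay under the filter with identical values on the arrays, and RNF186 was equal at 7.56. The median of the 11 measured members was -0.03.

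Ligases of immune signalling had none past 2-fold among 7, which is near the 5.22% higher and 3.7% lower of all genes. RNF166 was highest, reading 9.22 with p53 versus 8.45 in control cells, a difference of 0.77. RNF135, which ubiquitinates the RNA sensor RIG-I, had a difference of 0.48, and RNF114 of 0.46. RNF115 was lowest, reading 8.89 with p53 versus 9.55 in control cells, a difference of -0.66. RNF11 and RNF41 had differences of -0.06 and -0.02. RNF213, the giant ligase linked to moyamoya disease, was equal in both arrays on its brighter probe set and had a difference of -0.02 on the other.

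The 5 measured members of growth and Wnt signalling were also within 2-fold, again near the 5.22% higher and 3.7% lower of all genes. RNF123, also called KPC1, a ligase of the cell cycle inhibitor p27, read 9.09 with p53 versus 8.42 in control cells, a difference of 0.67. RNF187, a coactivator of JUN, had a difference of 0.42. RNF146, which targets axin, had a difference of -0.46, and RNF7, a ring finger partner of cullins, of -0.29. RNF6 was equal in both arrays at 7.92.

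Of the 7 germ line or tissue-restricted members, RNF182, best known in brain, was the lowest gene of the family. It read 7.41 with p53 versus 8.72 in control cells, a 2.48-fold lower level, and its p53 value lies at the filter level. RNF207, RNF212 and RNF151 had differences of -0.02, -0.02 and 0.08. RNF17, RNF32 and RNF112 were below the filter in both arrays.

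The 20 members with no assigned role had none past 2-fold, beside 5.22% higher and 3.7% lower of all genes. RNF208 came nearest, reading 8.70 with p53 versus 7.72 in control cells, a difference of 0.97, and its 2 probe sets held identical values, so they are no independent reading. RNF157 was lowest, reading 8.19 with p53 versus 9.10 in control cells, a difference of -0.91. RNF24 had a difference of 0.69, RNF214 of -0.27 and RNF25 of -0.32. RNF220 (-0.19), RNF44 (-0.14), RNF227 (-0.10), RNF181 (-0.09), RNF126 (-0.05) and RNF141 (-0.02) lay closer to 0. The 8 equal ones of this group were RNF10, RNF222 and RNF126P1 above the filter, and RNF39, RNF113B, RNF122, RNF175 and RNF213-AS1 below it. RNF216P1, a pseudogene of RNF216, had a difference of -0.30 beside -0.32 for RNF216. Whether their probes read the same transcripts was not tested.

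Equal values were common. Of the 79 members 21 had exactly the same value in both arrays (26.6%), against 35.3% of all genes, and 13 of the 21, RNF144A among them, were below the filter. The other 8 were kept, such as RNF10 at 10.06. Of all probe sets 35.9% held the same value in both arrays, and the labels do not say why. An equal value, also above the filter, is therefore not read as a measured lack of change. In no gene of the 5 with several probe sets did these fall on different sides of 2-fold. In RNF208 and RNF39 the 2 probe sets held identical values, so they could not differ. None of the 5 was called at 2-fold, so this is no check of the called members. Where a gene of any kind had 2 different probe sets above the filter (334 genes), the standard deviation between their differences, from the median absolute deviation, was 0.12. Genes whose 2 probe sets each held equal values in both arrays were not left out, and any such gene lowers this figure. The 0.12 reflects probes read within 1 pair of hybridisations, so the spread between cultures is not part of it.

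**Figure D4:**
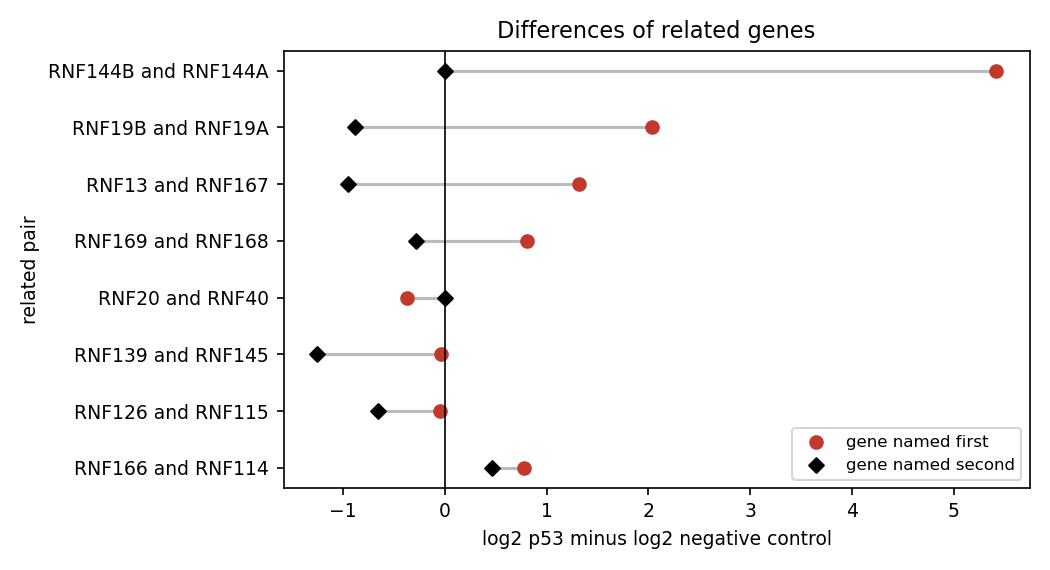
Log2 difference, p53 minus negative control (x axis), of 8 pairs of related members, with a circle for the gene named first and a diamond for the gene named second. In the first pair RNF144A lies below the filter in both arrays, and in RNF19B with RNF19A and RNF13 with RNF167 the genes lie on opposite sides of 0.

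In 5 of 8 pairs of related members, which were put together after the values were known, the differences lay at least 1 apart on the log2 scale. RNF144B and RNF144A were 5.41 apart, but RNF144A lay below the filter in both arrays and RNF144B in the control array, so the size of that gap is not settled. Of the 7 pairs with all values above the filter, 4 were at least 1 apart. RNF19B and RNF19A were 2.92 apart and RNF13 and RNF167 2.27. RNF139 and RNF145 were 1.22 apart and RNF169 and RNF168 1.10. RNF126 and RNF115 were 0.61 apart, RNF166 and RNF114 0.31, and for RNF20 minus RNF40 the value was -0.37. With 1 array per condition these gaps have no error of their own. How often other pairs of genes lie that far apart was not tested. Several of the 8 pairs hold a gene called at 2-fold, so the counts describe only these pairs.

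Other ubiquitination genes gave a setting for these values. Among 6 measured RBR ligases and LUBAC partners without an RNF name, ARIH1, which works with cullin ligases, was 2.43-fold higher, reading 11.63 with p53 versus 10.35 in control cells. ARIH2 had a difference of 0.82, ANKIB1 of 0.47 and CUL9, a p53-binding cullin that is also on the next list, of 0.37, and the list median was 0.42. Past 2-fold were 3 of 16 other ligases reported to act on p53, all 3 higher with p53 (18.8%), and the list median was 0.00. All 16 were kept genes. The share at least 2-fold higher was 8.21% of all kept genes and 5.22% of all genes. MDM2 read 13.59 with p53 versus 10.87 in control cells, WWP1 had a difference of 1.38, TOPORS of 1.34 and COP1, reported as a p53 target, of 0.81. The lowest of the list were TRIM28 at -0.63 and TRIM24 at -0.51. The log2 difference of RNF144B, 5.41, exceeded that of MDM2, 2.71.

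The 26 measured E2 enzymes, 25 of them kept, had 1 gene at least 2-fold higher (3.85%) and 3 at least 2-fold lower (11.5%). The shares were 5.22% and 3.7% of all genes, and 8.21% and 5.79% of all kept genes. The median of the 26 was -0.15. The 3 lower were UBE2T, the E2 of the Fanconi anaemia pathway (-2.27), and UBE2C (-1.91) and UBE2S (-1.14), the E2 enzymes of the anaphase-promoting complex. UBE2H (1.21) was the higher one. The 11 MARCH ligases are a membrane family with a variant ring finger, and 8 of them were kept. Only MARCHF8 was past 2-fold (9.09%), beside 5.22% of all genes and 8.21% of all kept genes higher. It read 11.49 with p53 versus 9.61 in control cells. MARCHF5 had a difference of 0.55, MARCHF2 of 0.41 and MARCHF9 of -0.29, and the median was 0.00. The E1 enzyme genes UBA1 and UBA6 had differences of 0.12 and -0.37.

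**Figure D5:**
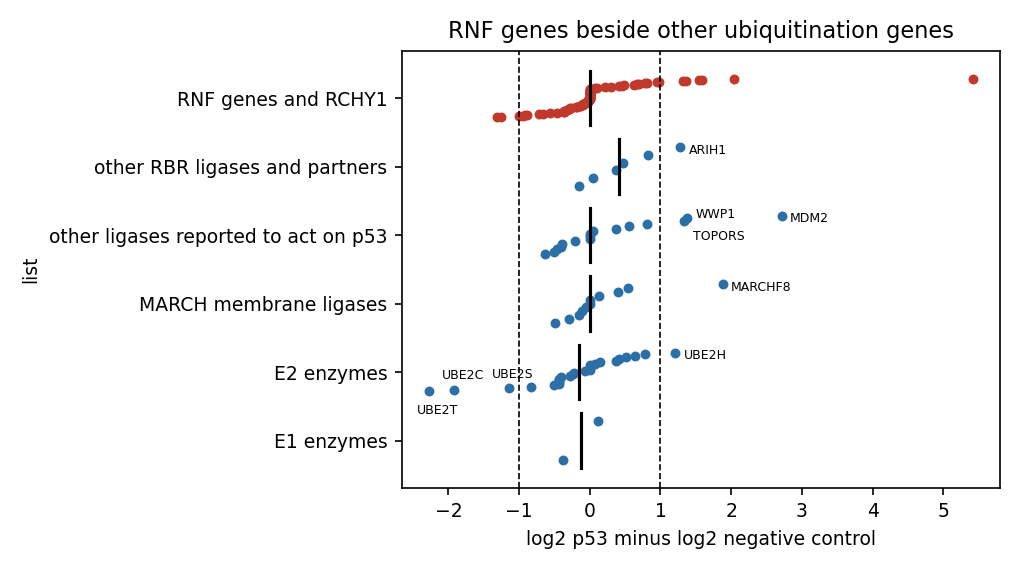
Log2 difference, p53 minus negative control (x axis), of the 79 members in red and of 5 lists of other ubiquitination genes in blue, 1 point per gene, with bars at medians and dashed lines at 2-fold. RNF144B at 5.41 lies right of every gene of the other lists, the highest of which is MDM2 at 2.71.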

How the data were processed

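Trizol-extracted total RNA was biotin-labelled for Affymetrix arrays, per the labels' protocols. The deposited values are log2 intensities, which the authors, per the submitters' processing notes, summarised with RMA. Neither software nor genome build is given in the sources used here. That the scale is log2 was read from the range, 1.41 to 14.68. Sorted, the 2 columns lay within 0.19 of each other, so a shift in total RNA per cell cannot be seen. Precision is limited by having 1 array per group.

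Gene names came from GEO's platform annotation, where 19460 had 1 symbol, 1754 several and 12083 none. All 79 members matched RefSeq by gene identifier. A gene took its probe set with the highest mean (769 genes had several). Kept genes reached the median of all probe sets (7.38) on at least 1 array. The 2-fold call is a rule of size, not a test. The members, roles and lists were chosen with earlier results of these data known. Genes named were RNF144B, RNF144A, RCHY1, CDKN1A, every member at least 1.5-fold apart, and, among kept genes, the largest differences of each role and list, at most 4 beyond those. Names outside this rule (further members, neighbours, pairs and the 2 lowest ligases acting on p53) were chosen after the values were seen. Alternatives covered the filter, threshold, centring, a lowess trend (span 0.3), quantile normalization, probe set averaging, an offset of 32 and a floor at the 25th percentile (5.97). Python 3.11.15, numpy 2.4.6, pandas 2.3.3, statsmodels 0.14.6 and matplotlib 3.10.9 were used.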

Additional observations from a re-analysis of the deposited data

How the results depend on the processing

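With 1 array per condition no replicate could be left out and no test could be run. No paired analysis was possible because each group has 1 sample. All 8 members called at 2-fold kept their direction and stayed past 2-fold under the 6 scaling, probe set, offset and floor alternatives. None of the 21 members at least 1.5-fold apart changed sign. Probe set averaging and the floor could not move any of these 21. Their probe sets were single or identical, and their values lay above the floor of 5.97. Centring and quantile normalization moved them little, because the 2 columns were already close, so these alternatives are a weak check. RNF208 passed 2-fold with the lowess trend removed, which gave 7 higher members. The RNF144B difference was 5.55 with that trend removed and 5.02 with the offset of 32, that of RNF144A was -0.17 with the trend removed, and their gap was 5.71 with the trend removed and 5.02 with the offset. RCHY1 ran from 0.57 to 0.72. At 1.5-fold, 13 kept members were higher (20.6%) and 8 lower (12.7%), beside 1642 (14.4%) and 1777 (15.5%) of all 11436 kept genes. At 3-fold, 2 of the 63 kept members were higher and 0 lower, beside 450 and 175 of all 11436 kept genes. With the filter at the 75th percentile (9.01), 1 member was lower, as RNF182 was then left out. The median of kept members was -0.02. Its sign was not stable: it was 0.06 with the lowess trend removed, 0.001 after quantile normalization and 0.00 with no filter. The mean of kept members, which RNF144B raises, was 0.12. Leaving out equal genes gave a median of -0.06 and leaving out non-coding members -0.02, both tried after the data were seen.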

Other observations

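Probe sets that name more than 1 gene entered no comparison. The 4 that name RNF5 together with its pseudogene RNF5P1 were lower with p53, with differences of -0.65, -0.61, -0.88 and -0.65. RNF5 is the closest relative of RNF185, which was 2.56-fold higher. The first and last of the 4 held identical values, and none reached 2-fold. A probe set shared by CHMP3 and the read-through RNF103-CHMP3 read 10.70 with p53 versus 9.998 in control cells, a difference of 0.70, while RNF103 itself was at -0.56.

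Many ring finger genes once carried an RNF symbol. Of 129 measured genes with such an older symbol among their RefSeq synonyms, 10 were at least 2-fold higher (7.75%) and 9 lower (6.98%). The shares were 5.22% and 3.7% of all genes, and 8.21% and 5.79% of all kept genes. Of the 129, 95 were kept, and the median of all 129 was 0.00. Among the 129, named after their values were seen, PCGF3, a Polycomb group ring finger gene, read 11.98 with p53 versus 9.67 in control cells. RAD18, a ligase of the replication clamp PCNA, read 8.70 with p53 versus 10.27 in control cells. Since the current RNF names cover only some of the human ring finger genes, the counts for the family describe a set made by naming.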
